A study of Mus musculus with 27 samples.

Results

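The response of bone marrow-derived macrophages to IL-4 was compared between WT and TRAP1 KO cells kept in control medium, and the genes described are those whose response depended on the genotype. The members were chosen by title, as the batch 1 libraries of Mφ and M2 cells in control medium, which are 12 of the 27 libraries of the series. The measure is the change from Mφ to M2 in TRAP1 KO minus the same change in WT, on the log2 scale. A positive value therefore means a stronger rise or a weaker fall in TRAP1 KO, and a negative value the reverse.

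Cells came from the marrow of female C57BL/6 mice aged 3 to 4 months, either WT or knocked out for TRAP1, and were differentiated with L929-conditioned medium as the source of M-CSF. Mφ received no IL-4, while M2 cells received IL-4 at 10 ng/ml for 24 h. Both were then held in control medium (DMEM) for 48 h before RNA was taken, so the values are those found 48 h after the polarization step. The sources used here do not state whether IL-4 was still present. Mφ are thus not an earlier time point. Levels said to be before IL-4 are those of Mφ, and levels said to be after it are those of M2 cells. The groups are WT Mφ (replicates 1, 2 and 3), WT M2 (replicates 2, 3 and 4), TRAP1 KO Mφ (1, 2 and 3) and TRAP1 KO M2 (1, 2 and 3), with 3 libraries each. Reads of a 3′ RNA-seq method had been counted on genes, with 7037684 to 8510959 counts per library (median 7697661), and levels are given as CPM, a gene's counts per 1000000 counts of the library, after TMM scaling. A transcript under 3 counts, or 0.352 to 0.426 CPM depending on the library, was taken as not detectable, a floor that covers counting error only.

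Trap1 was at 13.4, 11.6 and 11.6 CPM in WT Mφ and at 15.8, 16.3 and 18.8 CPM in WT M2, with 0 counts in the 6 TRAP1 KO libraries, so the knocked-out gene follows the labels. Xist, the RNA that coats the inactive X chromosome of female cells, was at 468, 340 and 327 CPM in WT Mφ and at 337, 369 and 409 CPM in WT M2, but at 0.875 CPM or less in each TRAP1 KO library. The Y-linked genes Ddx3y, Kdm5d, Uty and Eif2s3y had 0 counts in all 12 libraries. The state of the X chromosome and the genotype thus cannot be told apart in these groups. Of 6 tested genes on the list of X- and Y-linked genes, 0 had a genotype-dependent IL-4 response, against 7.08% of all genes. Lower levels in TRAP1 KO were found for 3 in Mφ and 5 in M2 cells, against 1085 and 1072 of all 13614 genes tested.

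Markers of macrophages were abundant in every group, led by Lyz2 with a mean of 3645 CPM, and summed to 10962 to 11852 CPM in WT Mφ, 9245 to 9567 in WT M2, 11312 to 14480 in Mφ of TRAP1 KO and 10300 to 10891 in its M2 cells. Fcgr1, a high-affinity receptor for IgG, differed in its response by 0.78 and Cd14, the co-receptor for lipopolysaccharide, by 0.81. They are 2 of 12 macrophage markers (16.7%, against 7.08% of all genes). Cd14 lost its call on leaving out any of 8 single libraries, with an adjusted p of up to 0.0697 (without replicate 3 of TRAP1 KO M2). Of 11 neutrophil markers 4 were tested, and 1 of these (25%, against 7.08% of all genes) had a different response. This was S100a8 (1.73), the most abundant at a mean of 5.83 CPM. Its list summed to 7.95 to 11.8 CPM in WT Mφ, 16.4 to 19.6 in WT M2, 2.05 to 2.94 in TRAP1 KO Mφ and 11.2 to 12.6 in TRAP1 KO M2. The sum therefore moved with IL-4 and with the genotype, and its part in the results was not tested. The lists of basophil and mast cells, eosinophils, dendritic cells, B and plasma cells, T and NK cells, fibroblasts, endothelial cells and erythroid or megakaryocytic cells had 0 members with a genotype-dependent response by edgeR's test, over 4, 1, 4, 1, 1, 1, 2 and 0 tested genes. Cma1, Cd79a, Cd3e, Trbc2, Lum, Tek, Emcn, Hba-a1 and Hba-a2 were at 0 in all 12 libraries. Basophil and mast cell markers summed to 0.674 to 1.99 CPM in WT Mφ, 5.55 to 9.41 in WT M2, 3.33 to 5.27 in Mφ of TRAP1 KO and 3.46 to 5.74 in its M2 cells. Kit, the most abundant over the 12 libraries, had 24 to 39 counts in TRAP1 KO Mφ and 0 to 4 in WT M2, where Prss34 led with 16 to 38 counts, so this sum moved with IL-4 mainly in WT, and its part in the results was not tested. Summed levels stayed at or under 4.6 CPM in B and plasma cells (Cd79b), 2.96 in T and NK cells (Klrb1c), 4.7 in fibroblasts (Col1a1), 1.41 in erythroid cells (Itga2b) and 15.5 in dendritic cells (Zbtb46). Eosinophil markers summed to 4.99 to 7.83 CPM in Mφ and 49.6 to 61.6 in M2, a sum made by Siglecf, which rose with IL-4 in both genotypes, and endothelial markers to 19.9 to 34.1 CPM in Mφ and 3.25 to 5.38 in M2, a sum made mostly by Kdr.

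Replicate 1 of Mφ stood apart from the other replicates in both genotypes, with chi-square values, divided by the degrees of freedom, of 16 and 16.5 in WT and of 16.1 and 17.8 in TRAP1 KO, against 2.11 and 3.42 between the remaining pairs. Replicate 2 of TRAP1 KO M2 gave 10.8 and 13.1, against 4.26 for the remaining pair, and WT M2 gave 2.98 to 4.31. The share of counts on mitochondrial genes was 2.91% to 3.52% in WT Mφ, 3.2% to 3.66% in TRAP1 KO Mφ, 4.8% to 5.29% in WT M2 and 5.22% to 6.1% in TRAP1 KO M2. In batch 2, which does not enter the comparison, the library labelled TRAP1 KO M2 in control medium replicate 4 stood apart from that group. It had 3 CPM of Mgl2, 25.1 CPM of Retnla and 2.7 CPM of Tk1. The batch 1 libraries of that group lay at 66.2 to 75.3, 1763 to 2074 and 22.5 to 27.6 CPM. Its share of counts on mitochondrial genes was 1.06%, against 5.22% to 6.1% in those libraries. The labels do not say that replicates are separate animals or cultures, so p-values measure the spread between these libraries, which may be technical. In bulk RNA, fewer cells of a kind and less RNA per cell cannot be told apart.

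IL-4 binds a receptor made of IL-4Rα with the common γ chain or with IL-13Rα1, and the receptor's JAK kinases phosphorylate STAT6, which enters the nucleus and switches on the genes of alternative activation. These encode lectins, chemokines of type 2 immunity and regulators that carry the program further, while SOCS proteins and CISH feed back on cytokine receptors. TRAP1 is a mitochondrial chaperone of the HSP90 family known for binding succinate dehydrogenase, and both the TCA cycle and fatty acid oxidation are known to take part in macrophage polarization.

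Among 13614 genes tested, 964 (7.08%) had an IL-4 response that differed between the genotypes at an adjusted p under 0.05 (edgeR's quasi-likelihood test with Benjamini-Hochberg adjustment). The response was higher in TRAP1 KO for 526 genes (3.86%) and lower for 438 (3.22%), and the median over all genes tested was -0.004759. In WT, IL-4 changed 5065 genes (37.2%), of which 2595 rose and 2470 fell. In TRAP1 KO it changed 3883 genes (28.5%), of which 2122 rose and 1761 fell. Before IL-4, 2261 genes (16.6%) had unequal levels in the Mφ of the genotypes, and after it 2238 (16.4%) in the M2 cells. In Mφ 1176 were higher and 1085 lower in TRAP1 KO, and in M2 1166 were higher and 1072 lower. Where list members are said below to rise or fall, or to be higher or lower, these are the counts over all genes. When an absolute log2 difference of at least 1 was also required, 426 genes passed, with 281 higher in TRAP1 KO and 145 lower. Without replicate 4 of WT M2, 456 genes were higher and 287 lower. With all 27 libraries in the fit, 170 genes passed, 90 higher and 80 lower, and 169 of these are among the 964 with the same direction. This fit adds the 3 libraries of batch 2 at once. The library described above enters TRAP1 KO M2, another enters WT Mφ in control medium, and another enters TRAP1 KO M2 in MPNST-CM. Their separate parts in the change were not tested.

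The largest class was that of genes that moved in WT and did not pass in TRAP1 KO. Of the 964 genes, 460 (47.7%) had a response past the threshold in WT alone, 310 of them with a higher value in TRAP1 KO, which are genes that fell in WT. Another 302 (31.3%) responded in the same direction in both genotypes with unequal size. In this class 155 rose in both and rose less in TRAP1 KO, with a median log2 fold change of 1.739 in WT and 0.9234 in TRAP1 KO. A response in TRAP1 KO alone was found for 135 genes (14%), opposite responses for 61 (6.33%), and 6 (0.622%) passed in neither genotype while differing between them. Seen from the side of the genotypes, 464 of the 964 genes (48.1%) differed between TRAP1 KO and WT in Mφ and not in M2, 290 (30.1%) in M2 and not in Mφ, 106 (11%) in both with opposite sign, 72 (7.47%) in both with the same sign, and 32 (3.32%) in neither. The difference in response equals the difference between the genotypes in M2 minus that in Mφ. Genes chosen on it therefore tend to differ in Mφ, in M2 or in both, and this sorting is a description. For many of them the unequal levels included those of Mφ, the cells that received no IL-4.

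**Figure D1:**
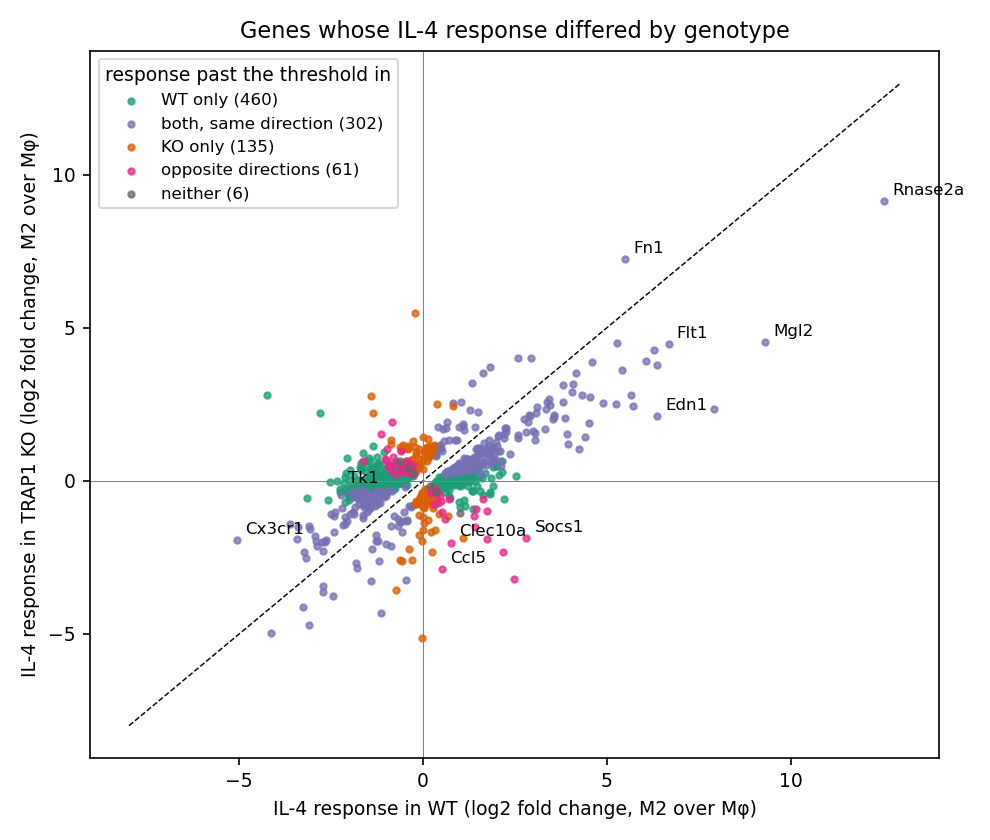
Log2 fold change of M2 over Mφ in WT (horizontal axis) and in TRAP1 KO (vertical axis) for the 964 genes whose response differed, each point a gene, coloured by the genotype in which its response passed the threshold. Points on the dashed line would have equal responses, and Mgl2 and Edn1 lie far below it because they rose less in TRAP1 KO, whereas Cx3cr1 lies above it because it fell less.

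The genes with the largest lower response in TRAP1 KO, among those with at least 10 CPM in a group, were mostly targets of IL-4 that rose steeply in WT. Mgl2, a galactose-binding lectin (CD301b), differed by -4.76 and Socs1, an inhibitor of JAK kinases, by -4.66. Edn1, the precursor of the vasoconstrictor endothelin 1, differed by -4.24. The next were Rnase2a, a secreted ribonuclease (-3.40), Ccl5, a chemokine for T cells and monocytes (-3.40), and Tuba8, an alpha-tubulin (-3.27). Cish, a feedback inhibitor of STAT signalling, differed by -3.21 and Gbp4, a guanylate-binding protein, by -3.18. Ccl8 (-2.97), Mmp14 (-2.91) and Ccl24 (-2.87) followed, which are a chemokine for monocytes, a membrane-bound metalloproteinase and a chemokine for eosinophils. Adjusted p ran from 3.04e-11 for Ccl5 to 0.00467 for Rnase2a. Several of these transcripts lay near the floor in Mφ, where a few counts set the fitted fold change, and 2 calls were lost without a single library. Rnase2a had an adjusted p of 0.14 without replicate 2 of TRAP1 KO Mφ (difference -2.84), and Tuba8 of 0.0858 without replicate 1 of that group (-2.74). Rnase2a and Gbp4 belong to families of close relatives, and the assignment of their reads was not tested.

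The largest higher responses in TRAP1 KO belonged mostly to genes that were more abundant in WT Mφ and fell there with IL-4. Cx3cr1, the fractalkine receptor of resident and patrolling myeloid cells, led with 3.12. It had 288, 305 and 297 CPM in WT Mφ and 10.1, 8.94 and 7.72 CPM in WT M2, against 40, 45.8 and 50.6 CPM in TRAP1 KO Mφ and 12.3, 12.7 and 10.5 CPM in TRAP1 KO M2. The fall was a log2 change of -5.06 in WT and -1.94 in TRAP1 KO, and the Mφ groups lay far apart while the M2 groups were close without overlapping. Ifitm1, an interferon-induced membrane protein, differed by 2.49, Mtus1, a microtubule-associated protein, by 2.28 and Pbk, a mitotic kinase, by 2.05. Alox5, the lipoxygenase that begins leukotriene synthesis, and Cped1 both differed by 2.02. Tk1, thymidine kinase 1, differed by 2.0, and Slc24a3, a sodium and calcium exchanger, Cav1, the coat protein of caveolae, and Ctla2a, a cathepsin inhibitor, each by 1.91. Cxcl14, a chemokine, differed by 1.87 and Stil, a centriole duplication factor, by 1.82. Of these 12, Cav1 and Cxcl14 rose in both genotypes and rose more in TRAP1 KO, and Mtus1 fell in WT and rose in TRAP1 KO, from a mean of 5.53 to 8.63 CPM. Adjusted p lay between 3.04e-11 for Cx3cr1 and 0.0136 for Cav1, whose call was lost without replicate 1 of TRAP1 KO Mφ (difference 1.5, adjusted p = 0.0704) and without replicate 2 of it (0.0605).

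Of the receptor chains, Il4ra and Il13ra1 did not pass, nor did the kinases, whereas the common γ chain Il2rg did. Il4ra, which encodes IL-4Rα, was at 90.5, 86.4 and 90.9 CPM in WT Mφ and 71.8, 63 and 61.1 CPM in WT M2, and at 83, 85.2 and 81.7 CPM in TRAP1 KO Mφ and 58.4, 70 and 65.4 CPM in TRAP1 KO M2. The genotypes overlapped in M2, and the difference in response was 0.09 (SE 0.16, adjusted p = 0.828). The values were -0.01 (SE 0.10) for Jak1, -0.32 (SE 0.12) for Tyk2, -0.10 (SE 0.31) for Il13ra1 and -0.39 (SE 0.20, adjusted p = 0.282) for Stat6. Stat6 was at 44.9, 49.7 and 42.4 CPM in WT M2 and at 39.3, 36 and 33.4 CPM in TRAP1 KO M2. Of 20 tested members of the IL-4 receptor and STAT6 pathway, 0 had a higher and 7 a lower response in TRAP1 KO (35%, against 7.08% of all genes), from -4.66 for Socs1 to -0.55 for Il2rg, with a list median of -0.5606. When all 27 libraries were fitted, 1 of the 20 had a lower response and the median was -0.279. In WT 10 members rose and 3 fell, and in TRAP1 KO 6 rose and 6 fell.

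The members that differed were chiefly feedback inhibitors and transcriptional regulators downstream of the receptor. Socs1 was at 2.7, 5.21 and 3.87 CPM in WT Mφ and rose to 24.2, 26 and 32 CPM in WT M2. In TRAP1 KO it fell, from 5.88, 6.41 and 7.76 CPM to 1.8, 0.67 and 3.03 CPM (difference -4.66, SE 0.43, adjusted p = 3.39e-08). Cish reached 26.3, 32.1 and 27.2 CPM in WT M2 and 1.35, 4.42 and 2.62 CPM in TRAP1 KO M2, from means of 1.48 and 1.38 CPM in Mφ (difference -3.21, SE 0.49, adjusted p = 5.29e-05). Socs2, a regulator of growth hormone and cytokine receptors, reached 25.2, 30.2 and 25.3 CPM in WT M2 and 6.45, 6.56 and 6.34 CPM in TRAP1 KO M2 (difference -2.74, SE 0.53, adjusted p = 0.00113). Irf4, a transcription factor of alternative activation, rose from a mean of 6.09 to 50.3 CPM in WT and from 5.64 to 14.3 CPM in TRAP1 KO (difference -1.69, SE 0.28, adjusted p = 0.000174). None of these 4 genes passed between the genotypes in Mφ by edgeR's test, although the Socs1 levels did not overlap there and were higher in TRAP1 KO (0.77, adjusted p = 0.0758). In M2 the WT libraries lay above all those of TRAP1 KO. The remaining 3, namely Ppargc1b (-0.92), a coactivator of mitochondrial genes, Irs2 (-0.90), an adaptor of the IL-4 receptor, and Il2rg (-0.55), the common γ chain, passed and lost the call on leaving out some single libraries, such as replicate 3 of TRAP1 KO Mφ for Ppargc1b (adjusted p = 0.0719) and Irs2 (0.0762) and replicate 1 of TRAP1 KO M2 for Il2rg (0.0675). Irs2 did not pass when the 12 libraries were fitted alone. Klf4, which cooperates with STAT6, rose in both genotypes with a difference of -0.19 that did not pass (adjusted p = 0.574).

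Among the pathway lists, the alternative activation markers had the median difference furthest from 0. Of 22 tested, 3 had a higher and 10 a lower response in TRAP1 KO (59.1%, against 7.08% of all genes), with a median of -1.449. The median log2 fold change with IL-4 was 5.572 in WT and 2.61 in TRAP1 KO. In M2 cells 16 of the 22 were lower in TRAP1 KO, against 1072 of all 13614 genes. Mgl2 was at 354, 331 and 342 CPM in WT M2 and at 75.3, 67.6 and 66.2 CPM in TRAP1 KO M2, from means of 0.519 and 3.00 CPM in Mφ (difference -4.76, SE 0.37, adjusted p = 3.28e-09). Clec10a, the related lectin MGL1, rose in WT from 39.1, 51.1 and 45.8 CPM to 80.4, 80.4 and 69.4 CPM, and fell in TRAP1 KO from 125, 157 and 153 CPM to 32.3, 44.2 and 30.6 CPM (difference -2.78, SE 0.18, adjusted p = 4.85e-11). For both lectins the level was higher in TRAP1 KO before IL-4 (log2 differences of 2.46 for Mgl2, with an adjusted p of 1.69e-05, and 1.68 for Clec10a) and lower after it. Mgl2 lay near the floor in WT Mφ, at 0.613, 0.261 and 0.684 CPM. A few counts there enter both its 2.46 in Mφ and its -4.76 in response, while in M2 the genotypes differed by -2.30.

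Flt1, the VEGF receptor 1, rose from a mean of 5.25 to 536 CPM in WT and from 6.72 to 149 CPM in TRAP1 KO (difference -2.21, SE 0.20, adjusted p = 3.02e-08). Ccl24 reached 62, 56.9 and 56.7 CPM in WT M2 and 9.91, 11.8 and 11.6 CPM in TRAP1 KO M2. Clec7a, the beta-glucan receptor dectin-1, rose from a mean of 170 to 1393 CPM in WT and from 326 to 957 CPM in TRAP1 KO (difference -1.48, SE 0.11, adjusted p = 1.31e-09). In TRAP1 KO its level was therefore higher than in WT before IL-4 and lower after it. Slc7a2, the arginine transporter CAT2, rose to means of 90.2 and 26.8 CPM (difference -2.02), with an adjusted p of 0.0581 without replicate 2 of TRAP1 KO Mφ. Ccl22, a chemokine for regulatory T cells, reached means of 60.9 and 14.6 CPM, and its difference of -2.14 was lost on leaving out most single libraries (adjusted p = 0.201 without replicate 2 of TRAP1 KO Mφ). Egr2 (-0.68) and Mrc1 (-0.41), the mannose receptor CD206, had smaller differences, which missed the threshold without replicate 3 of TRAP1 KO M2 (adjusted p = 0.0637 for Egr2) and without replicate 2 of it (0.0611 for Mrc1), Egr2 also without 4 other libraries and Mrc1 without replicate 2 of WT M2 (0.0531).

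Not every marker of the program differed. Retnla, which encodes the secreted protein RELMα, was at 1693, 1644 and 1680 CPM in WT M2 and at 1850, 2074 and 1763 CPM in TRAP1 KO M2, from under 3 CPM in all Mφ libraries. Its response differed by -1.42 and did not pass (SE 0.51, adjusted p = 0.108, or 0.0479 in DESeq2), a value set by the few counts in Mφ. Chil3, the chitinase-like protein Ym1, reached 267, 293 and 300 CPM in WT M2 and 255, 312 and 300 CPM in TRAP1 KO M2 (difference 1.2, SE 0.55, adjusted p = 0.228, and 0.000559 without replicate 2 of TRAP1 KO Mφ). In M2 the genotypes overlapped for Chil3, while for Retnla the TRAP1 KO libraries were the higher ones. Pdcd1lg2, the checkpoint ligand PD-L2, had means of 13.5 and 4.28 CPM in M2 and did not pass in its response (-2.81, adjusted p = 0.0684). The other way went 3 members. Fn1, fibronectin, rose from a mean of 4.07 to 182 CPM in WT and from 2.66 to 404 CPM in TRAP1 KO (difference 1.75, SE 0.38, adjusted p = 0.00478). Msr1, the scavenger receptor A, was at a mean of 331 CPM in WT Mφ and 148 CPM in TRAP1 KO Mφ and reached 485 CPM in both M2 groups (difference 1.16, SE 0.09, adjusted p = 3.44e-09). Cd163, the haemoglobin scavenger receptor, differed by 1.25, with levels under 7 CPM throughout and an adjusted p of 0.0617 without replicate 2 of WT M2 and of 0.0565 without replicate 2 of TRAP1 KO Mφ. With all 27 libraries, 1 member of the list had a higher and 3 a lower response, at a median of -1.56.

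**Figure D2:**
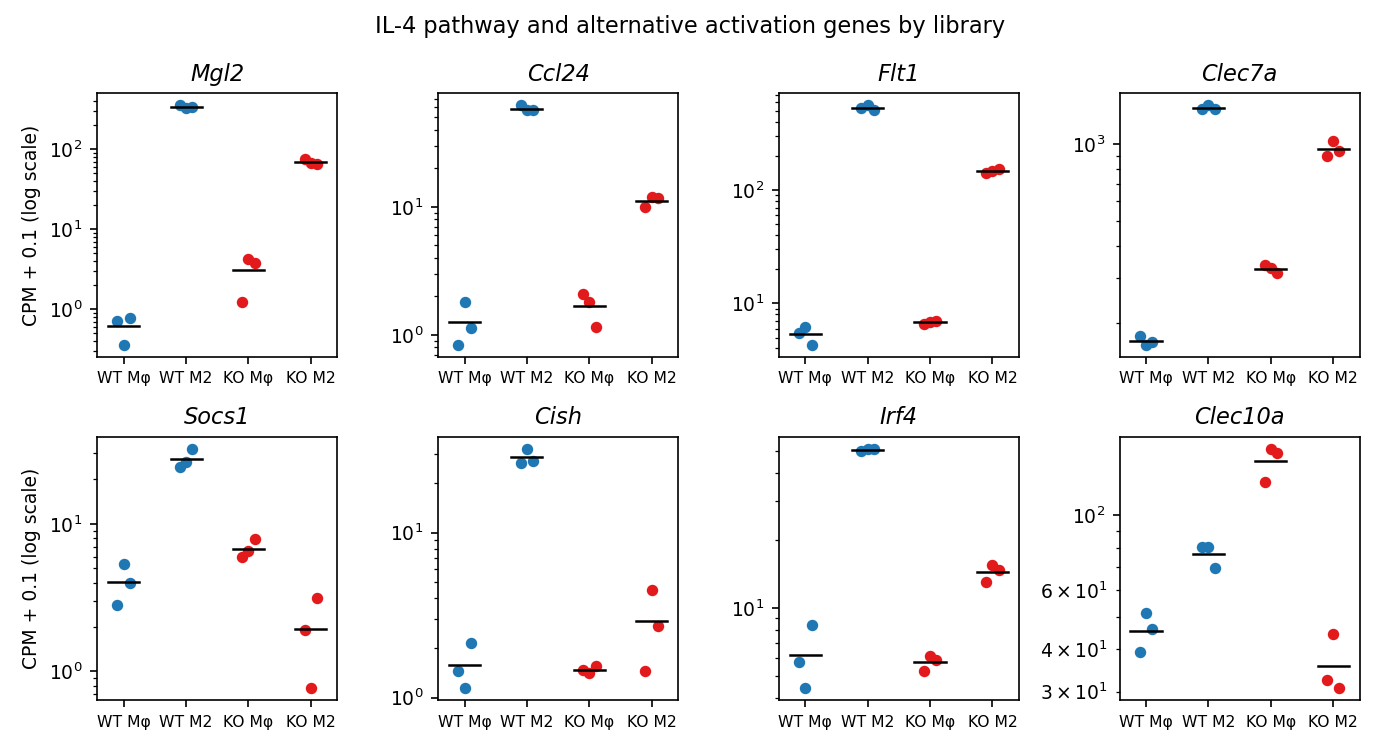
CPM plus 0.1, on log scales, of 8 genes of the IL-4 program in the 12 libraries, each point a library and each bar the mean of 3, in WT (blue) and TRAP1 KO (red) Mφ and M2 cells. Mgl2, Ccl24, Flt1, Irf4 and Clec7a rise in both genotypes to lower levels in TRAP1 KO, while Socs1 and Clec10a rise in WT and fall in TRAP1 KO.

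The 250 bases before the start of each gene were searched for motifs of STAT, hypoxia and interferon response factors, in RefSeq promoter windows of build GRCm38.p6, which were found for 9906 of the 13614 tested genes, for 411 of the 526 with a higher and 326 of the 438 with a lower response. The STAT6-type palindrome TTCNNNNGAA was held by 5.86% of all windows, by 5.6% of those with a higher and by 7.06% of those with a lower response. The palindrome with a spacing of 3, TTCNNNGAA, was held by 7.18%, 5.84% and 5.52%, and the hypoxia response core ACGTG by 24.9%, 23.6% and 27.6%. The interferon response core GAAANNGAAA was held by 3.38%, 2.92% and 6.75%. Both strands were searched, a match is a description and not a bound site, and a window that holds several motifs is counted under each. The STAT6-type palindrome was held by 2 of 6 windows of called interferon-stimulated genes (33.3%) and by 1 of 29 of called genes of DNA replication and mitosis (3.45%). Among 7 called alternative activation markers with a window, its single holder (14.3%) was Clec7a. The matches of Clec7a and Edn1, shown because both genes rose less in TRAP1 KO, begin 131 and 185 bases before the start. They lie in chr6:129472876-129472935 on the minus strand and chr13:42301266-42301325 on the plus strand. The Socs1 window holds the interferon response core at 2 overlapping places, in chr16:10785579-10785644 on the minus strand. Capitals mark the motif, and all lie upstream of the annotated start.
Clec7a: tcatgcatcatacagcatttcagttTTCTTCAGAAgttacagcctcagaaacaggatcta
Edn1: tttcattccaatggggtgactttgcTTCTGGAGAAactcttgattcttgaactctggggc
Socs1: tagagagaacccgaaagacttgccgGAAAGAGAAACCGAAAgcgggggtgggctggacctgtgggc

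Genes of DNA replication and mitosis formed the most uniform group. Of 40 tested, 34 had a higher and 0 a lower response in TRAP1 KO (85%, against 7.08% of all genes), from 0.59 for Cdt1 to 2.0 for Tk1. Cdt1, a licensing factor, was not called in 3 of the 12 fits without 1 library (adjusted p = 0.0748 without replicate 2 of TRAP1 KO M2). All 40 values were positive, with a median of 1.198. In WT, IL-4 lowered 37 of the 40 (2470 of all 13614 genes), with a median log2 fold change of -1.252. In TRAP1 KO 6 fell and 5 rose, with a median of -0.1204. The genotypes differed before IL-4, when 37 of the 40 had a lower level in TRAP1 KO Mφ (median -1.11), against 1085 of all 13614 genes. After IL-4 they were near each other, with 3 higher and 2 lower in TRAP1 KO M2 (median 0.1078). WT Mφ thus held the highest levels, and the other 3 groups lay close together.

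Tk1, which salvages thymidine for DNA synthesis, was at 89.5, 88.1 and 83.6 CPM in WT Mφ and at 20.1, 17 and 17 CPM in WT M2, against 30.9, 29.8 and 31.3 CPM in TRAP1 KO Mφ and 22.5, 26.2 and 27.6 CPM in TRAP1 KO M2. The WT groups were separated by far more than their spread, and the log2 fold change of -0.27 in TRAP1 KO did not pass (difference 2.0, SE 0.16, adjusted p = 3.28e-09). Ccne2, a cyclin of S phase entry, fell in WT from 61.8, 53.2 and 52.6 CPM to 29.3, 27.2 and 25.3 CPM and rose in TRAP1 KO from 20.8, 16.6 and 15.5 CPM to 25.5, 32.7 and 28.4 CPM (difference 1.75, SE 0.28, adjusted p = 0.000242). Rrm2, the regulatory subunit of ribonucleotide reductase, had means of 108 and 44.7 CPM in WT Mφ and M2 and of 31.8 and 41.3 CPM in TRAP1 KO (difference 1.65, SE 0.22, adjusted p = 1.64e-05). Top2a, topoisomerase II alpha, was at 533, 325 and 332 CPM in WT Mφ and at 213, 131 and 137 CPM in TRAP1 KO Mφ. In M2 it was at 102, 99.6 and 98.7 CPM in WT and at 126, 127 and 142 CPM in TRAP1 KO (difference 1.70, SE 0.39, adjusted p = 0.0106). Replicate 1 of Mφ, which stands apart, had the highest Top2a level of its group in both genotypes. When that replicate was left out of both Mφ groups, 30 of the 40 genes still had a higher and 0 a lower response. With all 27 libraries 0 of the 40 passed, at a median of 0.988. Pbk and Stil, both active in mitosis and outside the list, showed the same order, with Pbk at means of 48.9, 12, 16.9 and 17.3 CPM and Stil at 11.1, 3.23, 4.66 and 4.78 CPM in WT Mφ, WT M2, TRAP1 KO Mφ and TRAP1 KO M2.

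**Figure D3:**
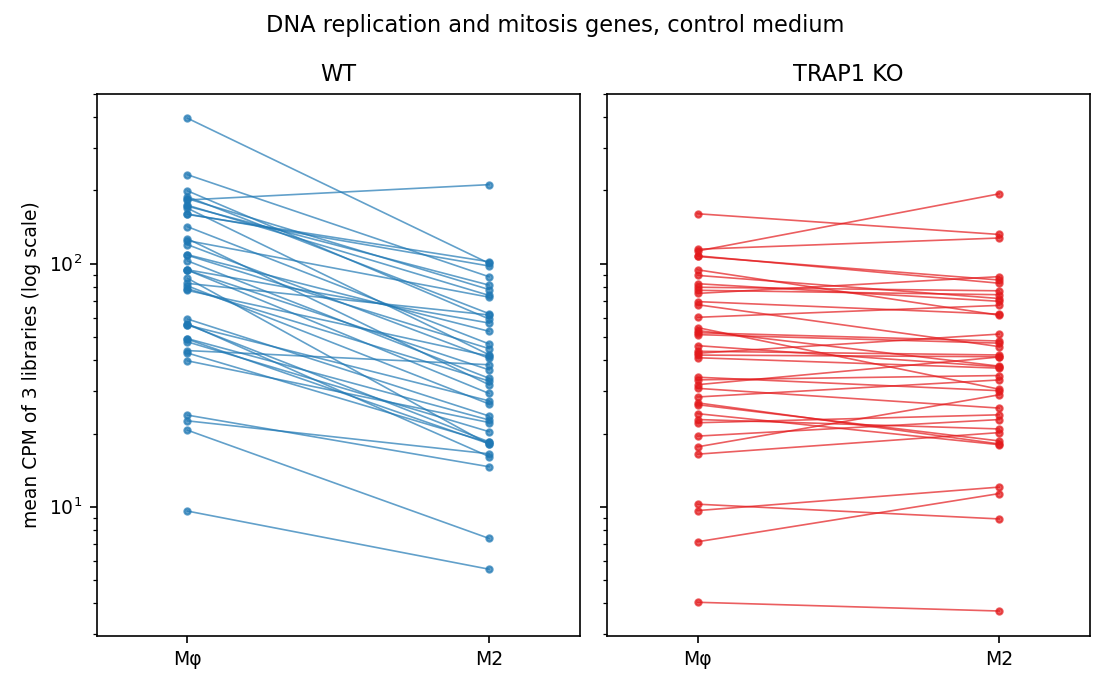
Mean CPM of 3 libraries (log scale) of the 40 tested genes of DNA replication and mitosis in Mφ and M2 cells of WT (left) and TRAP1 KO (right), with a line per gene. Lines fall in WT, where 37 genes were lowered, and run nearly level in TRAP1 KO, where 6 were lowered and 5 raised.

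Promoters of cell cycle genes are known for CCAAT boxes bound by NF-Y, so the letters CCAAT were added to the search after the values had been seen. They stood in 40% of all windows, 46.7% of those with a higher and 37.1% of those with a lower response, and in 22 of the 29 windows (75.9%) found for the 34 replication genes that passed. The share was much the same, 5 of 7 (71.4%), in the called alternative activation markers, and 2 of 6 (33.3%) in the called interferon-stimulated genes. Top2a holds 6 matches in chr11:99024218-99024439 on the minus strand and Rrm2 holds 1 in chr12:24708179-24708233 on the plus strand. The last of them begin 58 and 50 bases before the start. They are shown as the members with multiple and single boxes, with the matches on either strand in capitals.
Top2a: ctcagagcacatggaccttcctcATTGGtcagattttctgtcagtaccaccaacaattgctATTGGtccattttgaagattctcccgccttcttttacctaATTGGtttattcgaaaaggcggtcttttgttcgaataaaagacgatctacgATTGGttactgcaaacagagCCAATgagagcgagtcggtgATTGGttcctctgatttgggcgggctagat
Rrm2: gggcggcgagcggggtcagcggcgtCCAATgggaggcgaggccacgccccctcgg

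Of 17 tested inflammatory cytokines and mediators, 0 had a higher and 6 a lower response in TRAP1 KO (35.3%, against 7.08% of all genes), with a median of -0.843 and 4 positive values. When all 27 libraries were fitted, 3 had a lower response, and the median was -0.799, or -0.0917 with a batch term. In WT 8 members rose and 5 fell with IL-4, and in TRAP1 KO 2 rose and 8 fell. Before IL-4, 7 of the 17 were higher in TRAP1 KO than in WT Mφ and 0 lower, and in M2 7 were lower and 2 higher. Over all 13614 genes, 1176 were higher and 1085 lower in Mφ, and 1072 were lower and 1166 higher in M2. Ccl5 was at 13, 13.7 and 11.7 CPM in WT Mφ and 17.7, 19.8 and 17.3 CPM in WT M2, but at 69.4, 77.2 and 83.6 CPM in TRAP1 KO Mφ and 8.41, 11.1 and 11.4 CPM in TRAP1 KO M2. The highest levels by far were those of TRAP1 KO Mφ, and the lowest those of TRAP1 KO M2 (difference -3.40, SE 0.21, adjusted p = 3.04e-11). Ccl4, a chemokine made by activated macrophages, rose in WT from a mean of 60.2 to 165 CPM and fell in TRAP1 KO from 104 to 54.8 CPM (difference -2.38, SE 0.15, adjusted p = 3.04e-11). Ptgs2, the inducible cyclooxygenase, reached 7.81, 4.92 and 6.46 CPM in WT M2 and 2.55, 1.21 and 1.79 CPM in TRAP1 KO M2 (difference -2.78, SE 0.51, adjusted p = 0.000575). Nos2, the inducible nitric oxide synthase, had the largest value (-5.67) at levels under 2.5 CPM in every library, with all TRAP1 KO M2 libraries under the floor, so its size is not a bound. DESeq2 gave no adjusted p for it. AW112010, a transcript induced in inflammatory macrophages, is among the genes with a response in TRAP1 KO alone. It was at means of 27.7 and 27.1 CPM in WT Mφ and M2 and of 83.3 and 21.4 CPM in TRAP1 KO (difference -1.94, SE 0.20, adjusted p = 2.19e-07).

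Chemokines for monocytes and their receptors split by direction. Of 15 tested, 5 had a higher and 4 a lower response in TRAP1 KO (60%, against 7.08% of all genes), with a median of -0.1508, which turned to 0.206 without replicate 2 of TRAP1 KO Mφ. In the fit of all 27 libraries 1 had a higher and 0 a lower response. The lower ones were the CCR2 ligands Ccl2 (-1.47), Ccl7 (-2.17) and Ccl12 (-1.96) together with Ccl8 (-2.97). Ccl7 rose in WT from 36.4, 43.9 and 38.2 CPM to 114, 151 and 150 CPM, while in TRAP1 KO it was at 74.4, 77.8 and 63.3 CPM in Mφ and at 62.6, 48.3 and 57.4 CPM in M2 (difference -2.17, SE 0.26, adjusted p = 9.21e-06). It was therefore higher in TRAP1 KO before IL-4 and lower after it. Ccl8 rose in both genotypes from very unequal levels, from a mean of 0.720 to 15.8 CPM in WT and from 15.9 to 42.7 CPM in TRAP1 KO, so its lower response goes with a higher level in TRAP1 KO M2 (difference -2.97, SE 0.28, adjusted p = 3.4e-08). Ccl12 had an adjusted p of 0.0563 without replicate 4 of WT M2, where 2 of the 4 still passed, and Ccl2 lost its call in 7 of the 12 fits without 1 library (0.0763 without replicate 2 of TRAP1 KO M2). On the other side stood Cx3cr1, described above, Cxcl14, Pf4 (1.47), the platelet factor that macrophages also make, Ccr2 (0.60), the receptor for the CCR2 ligands, and Ccl6 (0.55), of which Ccr2 lost its call in 3 such fits (0.0726 without replicate 3 of TRAP1 KO Mφ). Cxcl14 rose from a mean of 4.85 to 12.1 CPM in WT and from 2.37 to 21.7 CPM in TRAP1 KO (difference 1.87, SE 0.37, adjusted p = 0.00149).

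Interferon-stimulated genes fell with IL-4 in both genotypes, 36 of 38 tested in WT and 38 in TRAP1 KO, with medians of -2.404 and -2.577. Before IL-4, 29 of the 38 were higher in TRAP1 KO than in WT Mφ and 1 was lower, against 1176 and 1085 of all 13614 genes. The response was higher in TRAP1 KO for 2, Slfn8 (0.68) and Ifi27l2a (0.72), and lower for 7 (23.7% in all, against 7.08% of all genes), with a list median of -0.2715. Slfn8 had an adjusted p of 0.105 without replicate 1 of WT Mφ and did not pass without 4 other single libraries. The sign of the list median turned with all 27 libraries, to 0.966, or 0.47 with a batch term, and 0 members had a higher and 1 a lower response in either fit. Gbp2, a guanylate-binding protein that attacks pathogen vacuoles, was at 44.6, 38.8 and 37.9 CPM in WT Mφ and 48.8, 43.8 and 47.6 CPM in WT M2, and fell in TRAP1 KO from 105, 97.5 and 99.2 CPM to 31.4, 31.6 and 32.8 CPM. The WT groups overlapped, whereas TRAP1 KO held both the highest and the lowest levels (difference -1.86, SE 0.14, adjusted p = 5.89e-10). Gbp3 fell from a mean of 29.4 to 16 CPM in WT and from 52.5 to 12.1 CPM in TRAP1 KO (difference -1.23, SE 0.25, adjusted p = 0.00154). Mx1, an antiviral GTPase, fell from 54.0 to 15.4 CPM in WT and from 94.8 to 13.2 CPM in TRAP1 KO (difference -1.04, SE 0.18, adjusted p = 0.000296). Oasl1, a regulator of interferon production, differed by -1.32 with an adjusted p of 0.0419, and missed the threshold on leaving out most single libraries (0.172 without replicate 3 of WT M2), in the 12 libraries alone, with DESeq2 and without a filter on low counts. In the fit of all 27 libraries Oasl1 and Mx1 had values of the opposite sign, which did not pass. The reads of Gbp genes could be shared among close relatives, which was not tested.

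Of the 9 interferon-stimulated genes that passed, 6 have a promoter window and 3 of these hold the interferon response core, against 3.38% of all windows. Those of Gbp2, in chr3:142620579-142620638, and Gbp3, in chr3:142559974-142560039, are shown as examples from the plus strand of the same build, with the motif in capitals. Gbp2 has 1 match beginning 59 bases before the start, and Gbp3 has 2 overlapping matches of which the last begins 39 bases before it.
Gbp2: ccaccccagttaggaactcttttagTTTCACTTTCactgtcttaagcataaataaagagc
Gbp3: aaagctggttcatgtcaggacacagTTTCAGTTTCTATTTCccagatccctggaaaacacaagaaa

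Genes of MHC class II presentation rose in both genotypes, 9 of 12 in WT and 8 in TRAP1 KO, from unequal levels. Of the 12 tested members, 0 had a higher and 5 a lower response in TRAP1 KO (41.7%, against 7.08% of all genes), 0 of the 12 values were positive and the median was -0.6463. Before IL-4, 7 of the 12 were higher in TRAP1 KO than in WT Mφ, and after it 0 were higher and 3 lower. Over all 13614 genes, 1176 were higher in Mφ, and in M2 1166 were higher and 1072 lower. H2-Ab1, a class II chain, was at 95.1, 107 and 110 CPM in WT Mφ and 187, 189 and 210 CPM in TRAP1 KO Mφ, and at 928, 826 and 881 CPM in WT M2 and 932, 882 and 912 CPM in TRAP1 KO M2. The genotypes were separated in Mφ and overlapped in M2 (difference -0.86, SE 0.11, adjusted p = 8.74e-06). H2-Aa was likewise separated in Mφ and overlapped in M2, with means of 158 and 269 CPM in WT and TRAP1 KO Mφ and of 1184 and 1164 CPM in M2 (difference -0.79, adjusted p = 2.62e-05). H2-Eb1 differed by -0.75, Cd74, the invariant chain, by -0.76 and H2-DMb1, part of the peptide exchange factor, by -0.48, a call lost in 3 of the 12 fits without 1 library (adjusted p = 0.0858 without replicate 1 of TRAP1 KO M2). With all 27 libraries 0 of the 12 passed, at a median of -1.04.

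Lysosomal genes and cathepsins rose with IL-4 in both genotypes, 23 of 26 in WT and 19 in TRAP1 KO. The response was higher in TRAP1 KO for 2 and lower for 6 (30.8%, against 7.08% of all genes), with a median of -0.2143, and the 6 became 2 with all 27 libraries, where 0 were higher, and 3 without replicate 1 or 3 of TRAP1 KO M2 or replicate 2 of WT M2. Atp6v0d2, a subunit of the vacuolar proton pump, rose from a mean of 77.3 to 803 CPM in WT and from 138 to 825 CPM in TRAP1 KO (difference -0.80, SE 0.11, adjusted p = 1.01e-05). Ctsz, cathepsin Z, rose from 254 to 1054 CPM in WT and from 468 to 916 CPM in TRAP1 KO (difference -1.08, SE 0.14, adjusted p = 8.74e-06). As for MHC class II, the level of these genes in TRAP1 KO Mφ was already above WT. Of the 26, 15 were higher there, against 1176 of all 13614 genes. The higher responses were those of Ctsl, cathepsin L, which rose from 1278 to 2693 CPM in WT and from 976 to 3557 CPM in TRAP1 KO (difference 0.79, SE 0.19, adjusted p = 0.0105), and Ctsc, cathepsin C, which fell in WT from 505 to 294 CPM and stood at 336 and 306 CPM in TRAP1 KO (difference 0.65, SE 0.15, adjusted p = 0.00794).

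Matrix proteins, proteases and integrins differed in both directions, 4 of 32 tested with a higher and 5 with a lower response in TRAP1 KO (28.1%, against 7.08% of all genes) and a median of -0.08557. In the fit of all 27 libraries 1 was higher and 1 lower. Mmp14 rose in WT from 7.85, 6.25 and 10.5 CPM to 21.5, 24.9 and 18.8 CPM and fell in TRAP1 KO from 17.3, 24.2 and 19.7 CPM to 7.5, 7.36 and 6.62 CPM. The order of the genotypes was turned over, with no overlap in Mφ or in M2 (difference -2.91, SE 0.28, adjusted p = 4.45e-08). Mmp9, a gelatinase, rose from a mean of 6.84 to 159 CPM in WT and from 35.4 to 238 CPM in TRAP1 KO, so the smaller fold in TRAP1 KO ended at the higher level (difference -1.79, SE 0.17, adjusted p = 6.16e-08). Itgb3, the integrin β3 chain, rose from 7.55 to 52.3 CPM in WT and from 9.27 to 28.2 CPM in TRAP1 KO (difference -1.19, SE 0.22, adjusted p = 0.000791). The coagulation factors F7 (-0.91) and F10 (-0.70) also had a lower response, F10 with a call lost in 5 of the 12 fits without 1 library (adjusted p = 0.0858 without replicate 1 of WT Mφ). Mmp8, neutrophil collagenase, was at 130, 155 and 156 CPM in WT Mφ and 24, 27.1 and 25.8 CPM in TRAP1 KO Mφ, and rose to 188, 205 and 196 CPM in WT M2 and to 81.1, 90.2 and 85.9 CPM in TRAP1 KO M2. Its fold was larger in TRAP1 KO while its level stayed below WT (difference 1.32, SE 0.15, adjusted p = 8.79e-07). The integrin chains Itga6 (1.02), Itgav (0.78) and Itgb5 (0.74) were the other members with a higher response.

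Complex I passes electrons from NADH into the respiratory chain. Of the 36 subunits on its list, all tested, 0 had a higher and 5 a lower response in TRAP1 KO (13.9%, against 7.08% of all genes). Of the 36 values 1 was positive, and the median was -0.2918. In WT 22 rose with IL-4 and 0 fell, and in TRAP1 KO 4 rose and 3 fell. In M2 cells 20 of the 36 were lower in TRAP1 KO. Over all 13614 genes, 2595 rose in WT, 2122 rose in TRAP1 KO, and 1072 were lower in TRAP1 KO M2. Ndufc2 was at 173, 191 and 188 CPM in WT Mφ and 235, 242 and 230 CPM in WT M2, and at 219, 242 and 222 CPM in TRAP1 KO Mφ and 194, 202 and 201 CPM in TRAP1 KO M2 (difference -0.55, SE 0.12, adjusted p = 0.00229). The genotype with the higher level was thus TRAP1 KO in Mφ and WT in M2. Ndufa7 differed by -0.51 (adjusted p = 0.00402) and Ndufb5 by -0.48, a call lost in 2 of the 12 fits without 1 library (adjusted p = 0.0628 without replicate 2 of WT M2). The calls of Ndufa6 (-0.52) and Ndufs8 (-0.53) were lost without replicate 3 of TRAP1 KO M2 (adjusted p = 0.0938 and 0.186) and in most other fits without 1 library. The count of 5 fell to 2 without replicate 2 of WT M2 or replicate 3 of TRAP1 KO M2, and to 3 without replicate 1 of TRAP1 KO M2, replicate 2 of TRAP1 KO Mφ, or replicate 3 or 4 of WT M2. With all 27 libraries 0 of the 36 passed, at a median of -0.25. The share of counts on the mitochondrial genome, given above, was higher in M2 than in Mφ and highest in TRAP1 KO M2, and its part in these values was not tested.

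Of 22 tested genes of succinate dehydrogenase and the TCA cycle, 0 had a higher and 2 a lower response in TRAP1 KO (9.09%, near the 7.08% of all genes), with a median of -0.2469. Sdhc, which anchors succinate dehydrogenase in the inner membrane, rose in WT from 201, 217 and 203 CPM to 272, 289 and 307 CPM. In TRAP1 KO it was at 210, 252 and 222 CPM in Mφ and at 211, 210 and 201 CPM in M2, a change that did not pass (difference -0.62, SE 0.13, adjusted p = 0.0018). Acod1 makes itaconate, an inhibitor of succinate dehydrogenase, from a TCA cycle intermediate. It was at 24.3, 25.9 and 24.9 CPM in WT Mφ and 30.8, 35.4 and 23 CPM in WT M2, but fell in TRAP1 KO from 51, 63 and 61.1 CPM to 10.8, 12.9 and 11.3 CPM. TRAP1 KO held the highest and the lowest levels of the 4 groups (difference -2.57, SE 0.23, adjusted p = 1.39e-08).

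Targets of HIF-1 and glycolysis included 0 members with a higher and 3 with a lower response among 28 tested (10.7%, against 7.08% of all genes), with a median of -0.1468, or 0.0801 with all 27 libraries. Besides Mmp9 they were Pfkp, the platelet isoform of phosphofructokinase, and Hk3, a hexokinase of myeloid cells. Pfkp rose from a mean of 61.3 to 175 CPM in WT and from 62.8 to 118 CPM in TRAP1 KO (difference -0.61, SE 0.11, adjusted p = 0.000369). Hk3 differed by -0.90 with an adjusted p of 0.0408, a call lost on leaving out any of 11 single libraries (adjusted p = 0.129 without replicate 4 of WT M2) and also with median-of-ratios size factors. Fatty acid oxidation and PPAR targets had 0 members with a higher and 1 with a lower response among 23 (4.35%, below the 7.08% of all genes, median -0.1753), which was Fabp4, a fatty acid-binding protein. It rose from 20.3 to 86.2 CPM in WT and from 90.7 to 180 CPM in TRAP1 KO (difference -1.10, SE 0.19, adjusted p = 0.000359), again with a higher level in TRAP1 KO at each stage. In cholesterol and fatty acid synthesis 1 of 28 had a higher and 1 a lower response (7.14%, close to the 7.08% of all genes, median -0.05791). These were Elovl6, an elongase of saturated fatty acids, with 1.49 (SE 0.30, adjusted p = 0.00177), and Scd2, a stearoyl-CoA desaturase, with -0.82 (SE 0.12, adjusted p = 4.47e-05).

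In the integrated stress response 0 of 22 had a higher and 5 a lower response (22.7%, against 7.08% of all genes, median -0.2925). In the fit of all 27 libraries 0 of the 22 passed by edgeR's test and the sign of the median turned, to 0.753, or 0.316 with a batch term. Slc7a11, the cystine importer, rose from a mean of 4.80 to 79.1 CPM in WT and from 4.63 to 34.7 CPM in TRAP1 KO (difference -1.15, SE 0.21, adjusted p = 0.000602), so that the genotypes separated with IL-4. Atf3, a stress-induced transcription factor, rose from 135 to 497 CPM in WT and from 213 to 435 CPM in TRAP1 KO (difference -0.85, SE 0.11, adjusted p = 4.86e-06). Atf5 differed by -0.88, with a value of the opposite sign when all 27 libraries were fitted. Ppp1r15a (-0.87) and Slc3a2 (-0.44, adjusted p = 0.0499) passed, but lost the call in 6 and 11 of the 12 fits without 1 library, with adjusted p values of 0.0823 and 0.232 without replicate 2 of WT M2, and Slc3a2 also with median-of-ratios size factors. Of the list, 3 members had a lower response without replicate 2 or 3 of WT M2, replicate 2 or 3 of TRAP1 KO M2, replicate 2 of WT Mφ or replicate 1 of TRAP1 KO Mφ. Among NRF2 antioxidant genes 0 of 16 had a higher and 2 a lower response (12.5%, against 7.08% of all genes, median 0.02936), Nfe2l2, which encodes NRF2 itself (-0.54, adjusted p = 0.00459), and Gstm1, a glutathione transferase (-0.49, adjusted p = 0.00749). Both rose in WT and fell in TRAP1 KO. Of 15 mitochondrial chaperones and HSP90 family genes, 0 had a higher and 1 a lower response (6.67%, below the 7.08% of all genes, median -0.1998, or 0.0342 with all 27 libraries). The 15 include Trap1 itself, whose response is not defined in TRAP1 KO, where it had 0 counts. The called gene was Hspe1, the partner of HSP60 (-0.54). Its call was lost without replicate 3 of TRAP1 KO M2 (adjusted p = 0.092) and without 5 other single libraries.

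**Figure D4:**
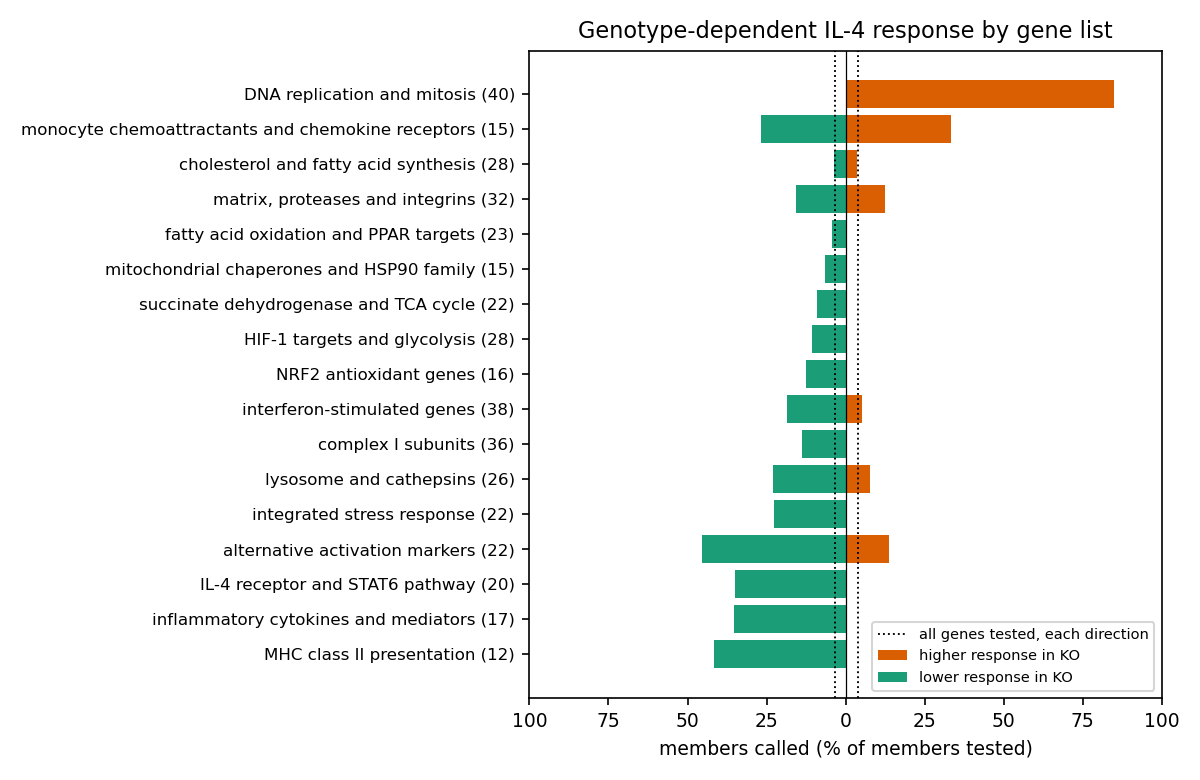
Share of tested members (% of the number in parentheses) of each gene list whose IL-4 response was higher (orange, right) or lower (green, left) in TRAP1 KO, with dotted lines at the shares over all genes tested, 3.86% and 3.22%. DNA replication and mitosis reach 85% on the higher side, and alternative activation markers and MHC class II presentation extend furthest on the lower side.

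The same contrast was formed in the 12 batch 1 libraries exposed to MPNST-CM. Their groups do not enter the contrast of control medium. They do share its fit, and with it the low-count filter, the scaling and the estimate of spread behind each SE and adjusted p. There 978 genes (7.18%) had an M2 to Mφ difference that depended on the genotype, 553 higher (4.06%) and 425 lower (3.12%) in TRAP1 KO. Of the 964 genes of control medium, 725 (75.2%) had the same sign in MPNST-CM, 330 (34.2%) passed there in the same direction and 42 in the opposite one. Genes with a higher response in TRAP1 KO kept the sign in 423 of 526 (80.4%) and passed in 217 (41.3%), with a median of 1.044 in control medium and 0.5573 in MPNST-CM. Those with a lower response kept it in 302 of 438 (68.9%) and passed in 113 (25.8%), with medians of -0.7786 and -0.1821. These medians fall partly because the genes were chosen in control medium. The test of the difference between the media passed for 423 of all genes (3.11%), 172 with a higher and 251 with a lower value in control medium, and for 190 of the 964 (19.7%), a share that is also raised by the choice of these genes on their value in control medium.

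DNA replication and mitosis had close differences in response in both media, with 34 of 40 members higher and 0 lower in MPNST-CM, a median of 1.141, and 1 member that differed between the media. The levels were not alike, since in MPNST-CM the M2 cells of the genotypes stayed apart for the named members. Means in WT M2 and TRAP1 KO M2 there were 57.4 and 9.86 CPM for Tk1 and 234 and 47.9 for Top2a. They were 105 and 17.7 CPM for Rrm2 and 51 and 15.9 for Ccne2. The alternative activation markers had 0 higher and 9 lower in MPNST-CM (median -1.122), and the IL-4 receptor and STAT6 pathway 0 and 6. For Mgl2 the differences were -4.76 in control medium and -4.18 in MPNST-CM. Socs1 had -4.66 and -1.03, the latter not past the threshold (adjusted p = 0.269). MHC class II presentation had 0 higher and 7 lower. In the list of complex I subunits 0 passed in MPNST-CM by edgeR's test, and the median of 0.06305 had the opposite sign. Interferon-stimulated genes differed most between the media, since 35 of 38 had a higher and 0 a lower value in TRAP1 KO in MPNST-CM (median 1.615, against -0.2715 in control medium), and 31 passed the test of the difference between the media. Gbp2 changed from -1.86 to 2.05 and Acod1 from -2.57 to 1.02, both past the threshold in each medium. For Cx3cr1, Ccl5, Ccl4 and Ifitm1 the values in MPNST-CM were near 0, at -0.07, -0.05, 0.06 and -0.08. Of the remaining lists in MPNST-CM, chemokines had 2 higher and 7 lower of 15 tested, and inflammatory mediators 4 and 3 of 17. HIF-1 targets and glycolysis had 0 and 7 of 28, cholesterol and fatty acid synthesis 0 and 8 of 28, and matrix genes 3 and 14 of 32. Over all genes in that medium, 4.06% were higher and 3.12% lower.

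**Figure D5:**
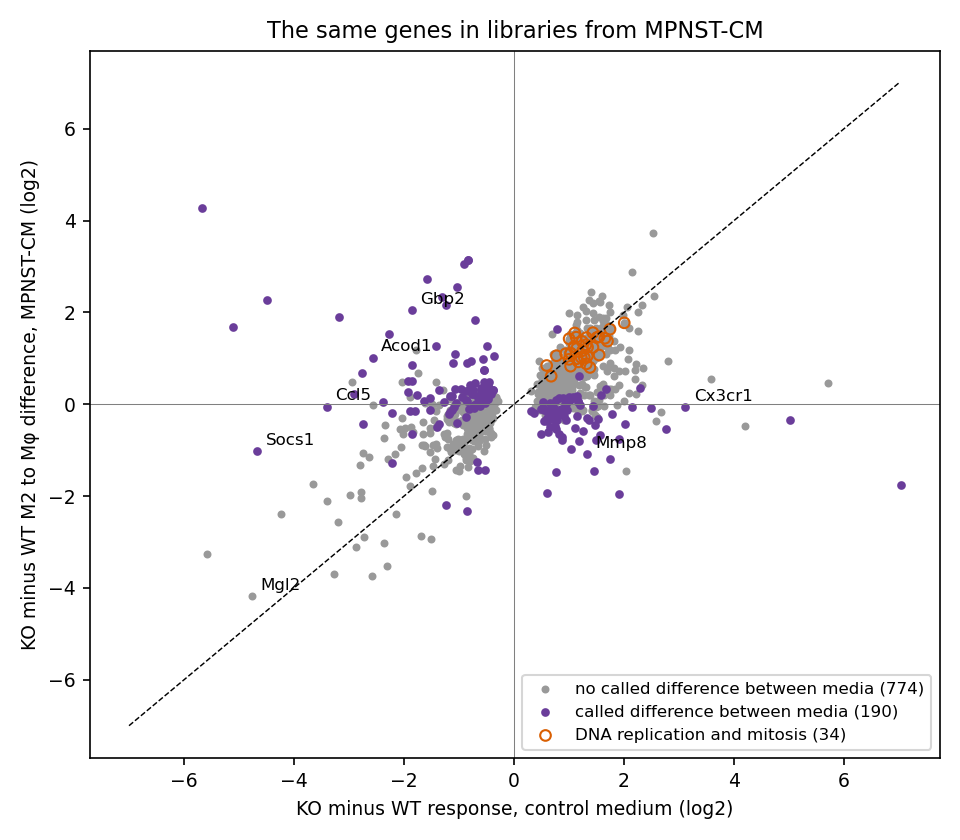
Log2 difference between TRAP1 KO and WT in the change from Mφ to M2, in control medium (horizontal axis) and in MPNST-CM (vertical axis), for the 964 genes that passed in control medium, with the 190 that differed between the media in purple and the 34 replication genes circled. The circled genes lie near the dashed line of equal values, Mgl2 is negative in both media, and Gbp2 and Acod1 are negative in control medium and positive in MPNST-CM.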

How the data were processed

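RNA of 27 libraries had been sequenced with a 3′ method, and the authors deposited raw counts per gene, made by trimming with Trimmomatic, checking with FastQC, mapping with HISAT2, filtering on mapping quality with SAMtools and counting with featureCounts. Versions were not given in the sources used here. The labels name build mm39 and the methods of the study mm10, which was not settled. The table holds 50559 genes in 32 columns, of which 5 match no described library and were not used. Such 3′ reads come from transcript ends, so levels depend on the annotated end of each gene.

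Counts were tested with edgeR 4.0.16 in R 4.3.3 (TMM scaling, filterByExpr by group, robust quasi-likelihood fit) over the 24 libraries of batch 1 in 8 groups with no covariate, and p-values were adjusted over 13614 genes by the Benjamini-Hochberg method at 0.05. Alternatives were no filter, DESeq2 1.42.0, size factors by median of ratios, the 12 libraries alone, all 27 libraries with and without a batch term, the replicate number as a block, a required log2 difference of 1 and leaving out each library. Replicate 1 of both Mφ groups was also left out together, which was chosen after seeing the data.

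The members and lists were chosen with earlier results of these data known. Named genes are Trap1, Xist, the 12 largest positive and 12 largest negative differences among called genes with at least 10 CPM in a group and a symbol other than that of a gene model, the 3 largest of each response pattern, up to 4 called members of each list, and any member of the alternative activation and IL-4 receptor lists. Some genes that fall under this rule are not reported here. Other genes named were chosen after their values were seen. Replicates were compared by chi-square over genes with at least 20 counts per pair, and none were duplicates.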

Additional observations from a re-analysis of the deposited data

Results flagged for a closer look

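The difference between the genotypes in the change from Mφ to M2 itself differed between control medium and MPNST-CM for 423 genes by edgeR's test of that difference, which is 3.11% of all genes, and for 31 of the 38 tested interferon-stimulated genes. Of the genes named by rule, 10 passed in both media with opposite directions. The value in control medium minus that in MPNST-CM was -5.08 for Gbp4, -3.91 for Gbp2 and -3.40 for Gbp3, which are guanylate-binding proteins, and -3.65 for Oasl1 and -3.59 for Mx1, which are antiviral. It was -3.58 for Acod1, the enzyme that makes itaconate, and -2.00 for Fabp4, a fatty acid-binding protein. The reverse order was found for Ctla2a (2.67), Mmp8 (2.41) and Elovl6 (2.27), whose response was higher in TRAP1 KO in control medium and lower in MPNST-CM. Adjusted p of these 10 differences between the media lay between 7.45e-13 for Gbp2 and 0.00105 for Ctla2a. The weakest call within a medium was that of Elovl6 in MPNST-CM (-0.78, adjusted p = 0.047). Results of the alternative settings are not given here for the test between the media, and the cause was not tested.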

How the results depend on the processing

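Among the settings confined to batch 1, the count of 964 genes changed to 960 with median-of-ratios size factors (945 shared in the same direction), 1038 with DESeq2 (929), 1078 without a filter (854) and 1114 in the 12 libraries alone (912), and no gene of the 964 changed sign. Leaving out each library in turn gave 743 to 914 genes, 447 to 503 higher and 287 to 432 lower in TRAP1 KO, where fewer libraries are fitted. Without replicate 1 of both Mφ groups 773 passed, 735 of them shared. With a required log2 difference of 1, 426 passed, 281 higher and 145 lower, a higher share of 66% against 54.6%.

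With all 27 libraries 170 genes passed, 90 higher and 80 lower, and with a batch term 122 passed, 57 higher and 65 lower. There 23 and 4 of the 964 changed sign. The 3 libraries of batch 2 then enter together, and their separate parts were not tested. That labelled TRAP1 KO M2 in control medium replicate 4 had 3 CPM of Mgl2 and 2.7 CPM of Tk1. That labelled WT Mφ in control medium replicate 4 had 1.26 and 100 CPM of these genes, and that labelled TRAP1 KO M2 in MPNST-CM replicate 4 had 157 and 30.1 CPM. Values reversed for Atf5 (0.71), Mx1 (0.58) and Oasl1 (2.38, or 0.77 with the batch term), none past the threshold, and the cause was not tested. DNA replication and mitosis had 34 members with a higher response under size factors and DESeq2, 35 in the 12 libraries alone, and 0 in edgeR's fits of all 27 libraries with and without the batch term.

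The replicate number as a block gave 998 genes, 561 higher and 437 lower, 846 of them shared. Of the genes named in the report as called, Ccl2, Ccl22, Ccr2 and Hk3 did not pass with it. Deviations from the group mean correlated over 0.1 in 3 of 15 same-number pairs (mean 0.0416, against -0.0156 in 39 other pairs). These 3 are the pairs of WT and TRAP1 KO Mφ with numbers 1, 2 and 3 (0.466, 0.16 and 0.197), while no same-number pair with an M2 library passed 0.1, so the numbers do not pair all the libraries. Replicate 2 of TRAP1 KO Mφ correlated as well with replicate 3 of WT Mφ (0.164), and within batch 1 number 4 belongs to WT M2 in control medium alone.

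Of 88 named genes that passed, 66 kept the call under every setting that left out batch 2, the required size apart, and 16 under every setting. Of the genes called in control medium, 75.2% to 77.8% had the same sign in MPNST-CM under the settings run. Transcripts near 3 counts, such as Nos2, have fold changes that this depth cannot bound.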

Other observations

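The 3 libraries of batch 2 enter the values above only where all 27 libraries are named or the library itself is. The library labelled WT Mφ in control medium replicate 4 had 22.6 CPM of Trap1 and 478 CPM of Xist, and 503 CPM of Top2a. Trap1 was at 0 CPM in the library labelled TRAP1 KO M2 in MPNST-CM replicate 4 and at 0.2 CPM in that labelled TRAP1 KO M2 in control medium replicate 4. Xist was at 293 and 422 CPM in these libraries, whereas no TRAP1 KO library of batch 1 in control medium exceeded 0.875 CPM. The first of them had 157 CPM of Mgl2 and 4252 CPM of Retnla. The other had 3 and 25.1 CPM of the same genes, and 9.4 CPM of Socs1. Its levels of Top2a and Tk1 were 32.1 and 2.7 CPM.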
